A study of Rattus norvegicus with 6 samples.

Results

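The claudins described here are 10 genes of the tight junction family, Cldn1, Cldn2, Cldn3, Cldn4, Cldn5, Cldn7, Cldn10, Cldn12, Cldn18 and Cldn23, out of 22 claudin genes and 15675 uniquely named genes in the deposited tables. They were taken by symbol, and the set was chosen because Cldn2 stood higher in every HIP library than in every wild-type library. The difference between HIP and wild type is therefore how the set was picked, and for these 10 genes it is given as a description with no test. RNA sequencing was done on total RNA of pancreatic duct glands, small mucous outpouchings of the duct wall, which were recognised by morphology and cut out by laser. The groups were 3 libraries of wild-type Sprague-Dawley rats (WT26, WT1 and WT4) and 3 libraries of pre-diabetic HIP rats of the same strain (HIP30, HIP2 and HIP3), which carry human islet amyloid polypeptide as a transgene (HIAPP in the labels). The transgene is driven in beta cells, and the rats are used to model type 2 diabetes. The labels give no age, and whether every library stands for a separate animal is not stated. If libraries share an animal, p-values over libraries are too small.

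Claudins are membrane proteins that span the membrane in several passes and meet in strands between neighbouring epithelial cells. Some close the space between cells and others form channels through it, so the mixture of claudins sets what can pass between the cells of an epithelium. Claudin-2, the product of Cldn2, forms a channel for small cations and water and is typical of leaky epithelia, while claudin-1, claudin-3 and claudin-4 are known mainly as sealing claudins. In ducts that secrete fluid, sodium and water follow secreted anions in part through this path between cells.

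The libraries held between 15141136 and 17574682 reads. A single read stood for 0.0596 to 0.0614 CPM, the unit of level used here, which sets the reads of a gene against the library total after scaling by trimmed means. Defining epithelial genes were abundant in all 6 libraries, with Epcam at 1435 to 2672 CPM and Cdh1 at 1768 to 3172 CPM. Islet transcripts differed inside both groups. Added up, 7 beta cell markers reached 11317 CPM in WT4, 5054 CPM in HIP3, 153 CPM in HIP2 and 93.9 CPM in WT1, and WT26 and HIP30 had no read of any of them. No gene passed limma's test over all genes (0 of 12102 tested, 0% in each direction, at a Benjamini-Hochberg adjusted p of 0.05), and limma-voom called 0 as well. With p unadjusted and under 0.05 there were 792 genes (6.54%) by limma and 914 (7.55%) by limma-voom.

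Cldn2 was measured with 4639 to 28033 reads per library. Its level was 277 (WT26), 343 (WT1) and 667 CPM (WT4) in wild type, and 1704 (HIP30), 1053 (HIP2) and 766 CPM (HIP3) in HIP. The groups did not overlap, but the highest wild-type library and the lowest HIP library lay close, with HIP3 at 1.15 times WT4. Those are the libraries just outside and just inside the limit that chose the gene. The means were 429 ± 209 CPM (SD, n = 3) in wild type and 1175 ± 480.5 CPM in HIP, a log2 difference of 1.48 (standard error 0.40). Within wild type the level ran over 2.41-fold and within HIP over 2.22-fold, so the spread inside each group was nearly as wide as the ratio of the means, 2.74. Of all tested genes, 3.14% had a difference at least as high as that of Cldn2.

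**Figure D1:**
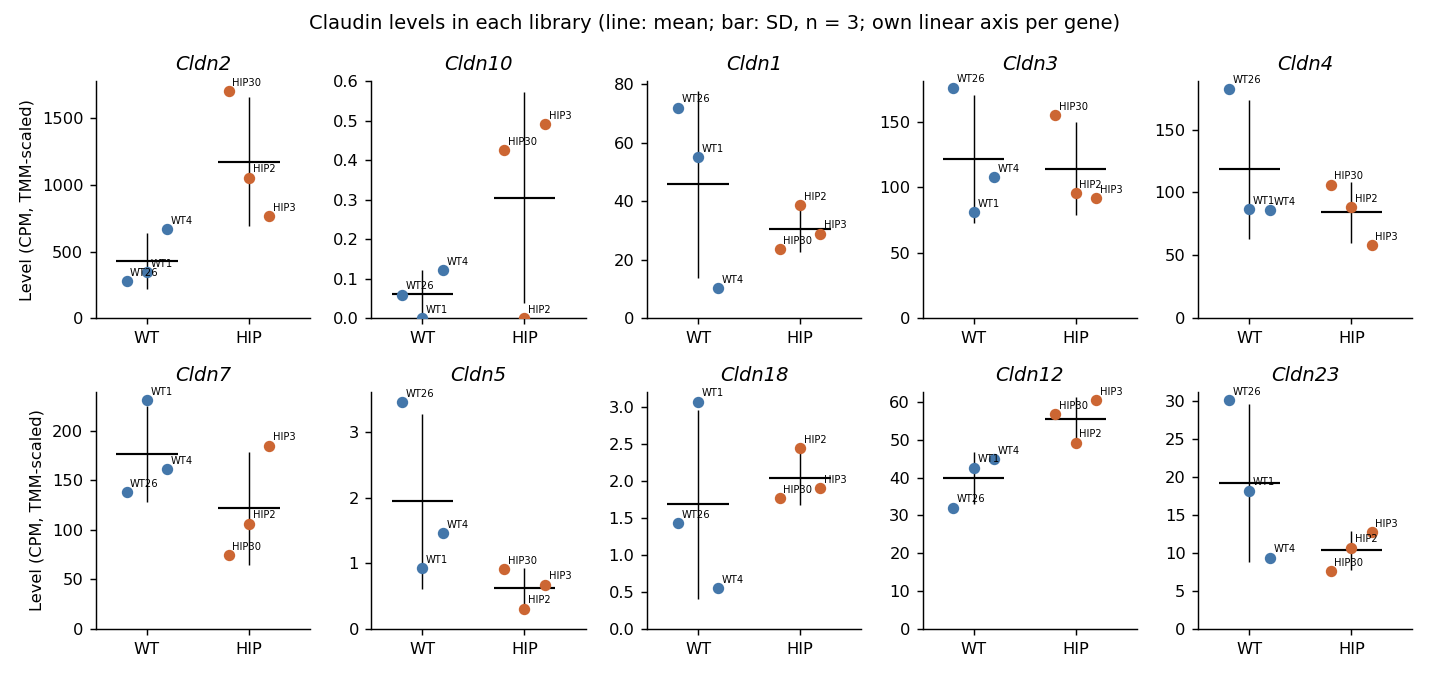
Level of each of the 10 claudins in CPM on its own linear axis, with a point per library, a line at the group mean and a bar of 1 SD (n = 3, cut at 0). Cldn2 and Cldn12 show every HIP point above every wild-type point, whereas the points of Cldn1, Cldn3, Cldn4, Cldn7, Cldn10, Cldn18 and Cldn23 overlap.

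The size of the Cldn2 difference depended on which libraries were set against each other. HIP30 exceeded WT26 by 2.62 on the log2 scale, while among the libraries numbered 1 to 4 the difference was 0.91. HIP3 exceeded WT4 by 0.20. WT4 and HIP3 are the libraries with the most islet reads, and without both of them the difference was 2.12. They are also the highest wild-type and the lowest HIP library for Cldn2. Leaving them out therefore raises the difference whatever their islet reads, and nothing about islet tissue is read from it. HIP30 and HIP2, the libraries with the highest Cldn2, also stood apart in other cell markers. The sum of 9 macrophage markers was 2223 and 2240 CPM there, against 119 to 574 CPM in wild type and 375 CPM in HIP3. In HIP30 and HIP2 most of that sum was Mpeg1, at 1929 and 1945 CPM, and Mpeg1 had no read in WT26. All 9 macrophage markers were higher in HIP (median log2 difference 0.66). Of them 0 passed limma's test, and 1 had an unadjusted p under 0.05 (3.29% of all tested genes were higher at that p). Ptprc, the leukocyte antigen, stood at 67.9 and 74.4 CPM in HIP30 and HIP2, within the wild-type range of 54.4 to 90.7 CPM. The sum of 9 proliferation genes was 98.7 CPM in HIP30 and 388 CPM in HIP2, against 1438 to 2325 CPM in wild type and 2185 CPM in HIP3. Of the 9, 5 had no read in HIP30. All 9 proliferation genes were lower in HIP (median log2 difference -3.72), and 0 passed limma's test or limma-voom. With p unadjusted and under 0.05 limma gave 2 of 9. Limma-voom gave 7 of 9, where 7.55% of all tested genes differed in either direction. For 0 of the 9 did every HIP library lie below every wild-type library (4.27% of all tested genes). The sum of 9 fibroblast markers was 466 CPM in HIP30 and 826 CPM in HIP2, against 1490 to 2303 CPM in wild type and 1838 CPM in HIP3. All 9 were lower in HIP (median log2 difference -1.24), 0 passed limma's test, 5 had an unadjusted p under 0.05 (3.26% of all tested genes were lower at that p), and none was at 0 in any library. The part of these cell markers in the Cldn2 difference was not tested. In tissue cut out as a whole, more cells with Cldn2 and more Cldn2 RNA per cell cannot be told apart.

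Cldn10, another member known to form channels, was near the limit of detection. It had 1 read in WT26, none in WT1 and 2 in WT4, against 7 in HIP30, none in HIP2 and 8 in HIP3. The zeros leave room for up to 0.184 CPM in WT1 and 0.183 CPM in HIP2, a limit of 3 reads that covers counting error only. Cldn10 was the member that did not pass the filter on low counts, and a difference between groups was not detectable at this depth. Cldn15, a further pore-forming claudin outside the 10 genes, stood at 0.477 to 0.983 CPM in wild type and 0.613 to 1.64 CPM in HIP, with overlapping groups (limma, adjusted p = 0.854). Of Cldn2, Cldn10 and Cldn15, Cldn2 alone had more than 27 reads in a library.

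Among the sealing claudins, Cldn3 overlapped fully between groups. Its level was 176 (WT26), 81.0 (WT1) and 108 CPM (WT4) in wild type, and 155 (HIP30), 95.3 (HIP2) and 91.7 CPM (HIP3) in HIP. The log2 difference was -0.06 (standard error 0.32), and its sign turned with library totals in place of trimmed means.

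Cldn4 is the direct neighbour of Cldn3 in the RefSeq gene table of rat (GRCr8), with no coding gene between them. Its level was 182 (WT26), 86.7 (WT1) and 86.0 CPM (WT4) in wild type, and 106 (HIP30), 88.2 (HIP2) and 57.8 CPM (HIP3) in HIP. WT26 was the highest and HIP3 the lowest library, with the other 4 close together. The log2 difference was -0.44 (standard error 0.35), and it went to -0.08 without WT26. Over the 6 libraries the log2 levels of the 2 neighbours had a Pearson r of 0.81, and of 0.88 after each group's mean was taken off. Each stood in its highest library, WT26, above 170 CPM.

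Cldn1, a claudin of the epidermal barrier and of many epithelia, varied most inside wild type among the members with over 100 reads in every library. Its level was 71.96 CPM in WT26 and 55.0 CPM in WT1 but 10.2 CPM in WT4, against 23.6 CPM in HIP30, 38.7 CPM in HIP2 and 28.8 CPM in HIP3. All HIP values lay between the wild-type values. The log2 difference of -0.21 (standard error 0.67) became -1.08 without WT4 and turned to 0.32 without WT26, so it has no settled direction in these libraries. Its direct neighbour in the gene table, Cldn16, had 17 reads in WT4, 1 in WT1 and none in the other 4 libraries.

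Cldn7, which sits along the lateral membrane and binds the adhesion protein EpCAM, stood at 138 (WT26), 231 (WT1) and 162 CPM (WT4) in wild type, and 74.4 (HIP30), 106 (HIP2) and 185 CPM (HIP3) in HIP. HIP30 and HIP2 lay below every wild-type library, and HIP3 lay above WT26 and WT4. The log2 difference was -0.61 (standard error 0.35), over a range of -0.97 to -0.30 with a library left out in turn. Its partner Epcam had a log2 difference of -0.22 (limma, adjusted p = 0.889).

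The stretches before the annotated starts of Cldn3 and Cldn7 are shown because these are the well-measured sealing or lateral claudins against which Cldn2 is set below, and because claudin genes of this kind are known to be repressed through E-boxes by the Snail factors. Both come from RefSeq (GRCr8) and hold 250 bases, 5′ to 3′ on the strand of the gene, with motif matches in capitals. The windows are chr12:27346548-27346797 (minus strand) for Cldn3 and chr10:55188420-55188669 (plus strand) for Cldn7.
Cldn3: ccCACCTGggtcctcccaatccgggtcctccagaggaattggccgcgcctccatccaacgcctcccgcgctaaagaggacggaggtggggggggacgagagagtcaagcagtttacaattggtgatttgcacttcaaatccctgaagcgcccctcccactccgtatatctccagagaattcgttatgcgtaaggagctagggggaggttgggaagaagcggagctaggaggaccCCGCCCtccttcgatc
Cldn7: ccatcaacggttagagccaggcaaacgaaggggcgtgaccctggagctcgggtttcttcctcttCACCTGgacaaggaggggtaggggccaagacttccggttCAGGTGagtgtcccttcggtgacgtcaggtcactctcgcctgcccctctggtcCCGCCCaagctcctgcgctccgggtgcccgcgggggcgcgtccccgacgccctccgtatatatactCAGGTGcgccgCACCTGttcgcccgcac

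The capitals mark the Snail E-box CACCTG and the GC box GGGCGG, on either strand, with no overlap between matches. Cldn7 held 4 E-boxes, which begin 186, 147, 28 and 17 bases before the start, and Cldn3 held 1, which begins 248 bases before it. Of 33469 RefSeq windows of this length 15.9% held at least 1 such E-box and 30.5% a GC box. The table had a window for 7 of the 10 members and none for Cldn2, Cldn4 and Cldn23, and for Cldn12 and Cldn18 the window starts from a transcript inside the gene. Among the 7 windows, 2 held the E-box and 5 the GC box. Other motifs were also searched on both strands. The GATA factor motif AGATAA and the CDX motif TTTATNG stood in Cldn12, and in 10.3% and 10.1% of all windows. None of the 7 windows held TATAAA, the motif of the TATA-binding protein (12.9% of all windows), or AACCNGTT, the motif of grainyhead-like factors (1.76%).

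Cldn12, a claudin without the usual C-terminal motif that binds scaffold proteins, was the only member besides Cldn2 with every HIP library above every wild-type library. Its level was 32.0 (WT26), 42.6 (WT1) and 44.9 CPM (WT4) in wild type, and 56.8 (HIP30), 49.3 (HIP2) and 60.5 CPM (HIP3) in HIP. The nearest libraries, WT4 and HIP2, differed by a factor of 1.10. The log2 difference was 0.49 (standard error 0.21), and it stayed between 0.32 and 0.58 in all 15 alternative settings. Unlike Cldn2, its highest library was HIP3.

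Cldn23 ran the other way through the libraries. Its level was 30.05 (WT26), 18.2 (WT1) and 9.36 CPM (WT4) in wild type, and 7.60 (HIP30), 10.7 (HIP2) and 12.7 CPM (HIP3) in HIP. WT4 lay among the HIP libraries, and the log2 difference was -0.76 (standard error 0.46). Over the 6 libraries its log2 level had a Pearson r of -0.91 with that of Cldn2, the lowest among the members that passed the filter, and of -0.94 after each group's mean was taken off.

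Cldn5 and Cldn18 are claudins of other tissues and had few reads. Cldn5, the claudin of blood vessel endothelium, stood at 3.46 (WT26), 0.921 (WT1) and 1.46 CPM (WT4) in wild type, and 0.912 (HIP30), 0.305 (HIP2) and 0.674 CPM (HIP3) in HIP. Every HIP library lay below every wild-type library, but WT1 and HIP30 both had 15 reads, and with library totals in place of trimmed means the groups overlapped. The log2 difference was -1.36 (standard error 0.73). The sum of 12 endothelial markers was 231 to 418 CPM in wild type and 230 to 368 CPM in HIP, with none at 0 in any library, and 4 of 11 tested markers were higher and 7 lower in HIP.

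Cldn18, known from stomach and lung, stood at 1.43 (WT26), 3.07 (WT1) and 0.547 CPM (WT4) in wild type, and 1.76 (HIP30), 2.44 (HIP2) and 1.90 CPM (HIP3) in HIP, with overlapping groups. Its 9 to 50 reads per library leave a log2 difference of 0.52 (standard error 0.69), whose sign turned without WT4. The summed level of 8 markers of gastric type mucous epithelium was 95.6 to 368 CPM in wild type and 27.1 to 265 CPM in HIP. Tff1 was most of that sum in wild type and HIP3, but it had no read in HIP30 and stood at 25.6 CPM of 61.9 CPM in HIP2. The sum therefore follows Tff1 and not the list. Of 6 tested markers 3 were higher and 3 lower in HIP, with a median log2 difference of 0.20, and 0 passed limma's test.

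**Figure D2:**
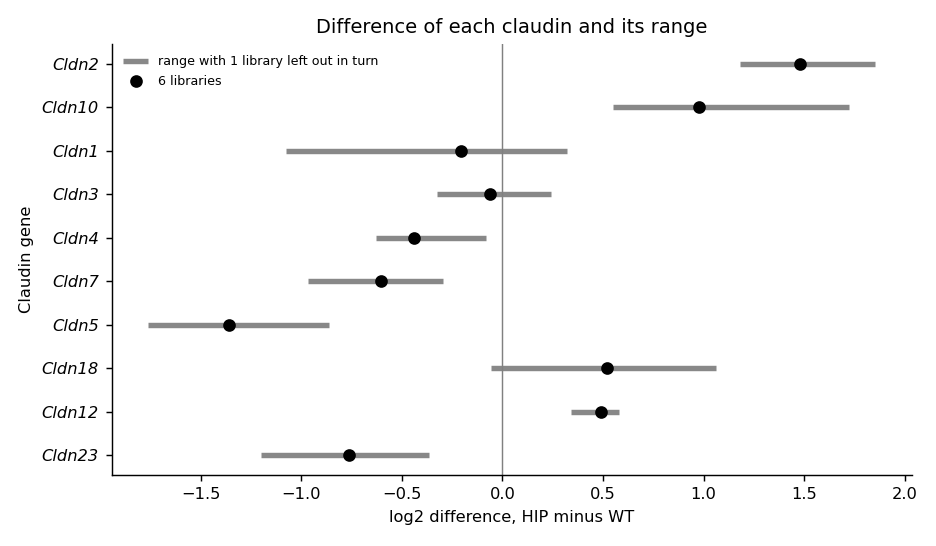
The log2 difference of HIP minus wild type for each of the 10 claudins (points) and the range of that difference when each of the 6 libraries was left out in turn (grey lines). The range of Cldn2, 1.18 to 1.85, and that of Cldn12, 0.34 to 0.58, stay above 0, while those of Cldn1, Cldn3 and Cldn18 cross it.

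Counted over the 10 members, 2 had every HIP library above every wild-type library and 1, Cldn5, every HIP library below. Among all tested genes these shares were 5.27% and 4.27%. Cldn2 was what the set was chosen on, so nothing is read from the count. Of the 9 members other than Cldn2, Cldn10, Cldn12 and Cldn18 had a positive difference and the other 6 a negative one.

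The reads of the 22 claudin genes changed in their mixture from library to library. Cldn2 took 27.5% (95% exact binomial interval 26.8 to 28.2) of the claudin reads in WT26, 35.3% (34.6 to 36.05) in WT1 and 56.8% (56.1 to 57.5) in WT4. In HIP it took 76.1% (75.6 to 76.5) in HIP30, 67.2% (66.6 to 67.8) in HIP2 and 60.3% (59.7 to 61.0) in HIP3. These are shares of reads, not of molecules, since longer transcripts give more reads, and the intervals cover counting error only. The summed level of the 21 other claudins was 729 (WT26), 628 (WT1) and 507 CPM (WT4) in wild type, and 537 (HIP30), 514 (HIP2) and 504 CPM (HIP3) in HIP. The sum of all 22 was 1050 ± 109 CPM in wild type and 1693 ± 497 CPM in HIP (SD, n = 3). The sum without Cldn2 stood in the 3 HIP libraries close to that of WT4 and below those of WT26 and WT1.

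**Figure D3:**
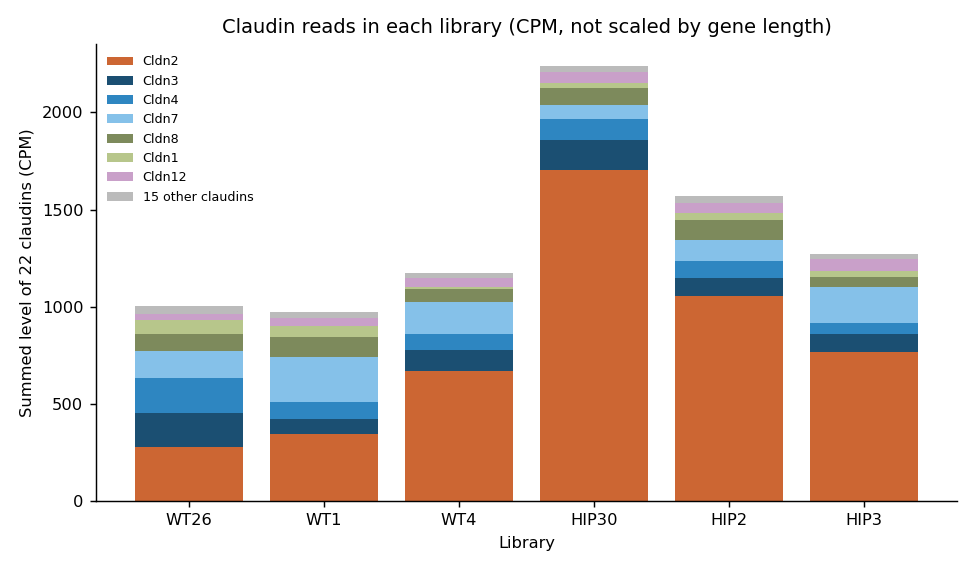
Summed level of 22 claudin genes in CPM for each library, stacked by gene and not scaled by gene length. The Cldn2 segment runs from 277 CPM in WT26 to 1704 CPM in HIP30, while the sum of the other segments runs from 504 CPM in HIP3 to 729 CPM in WT26.

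Ratios of reads inside a library do not depend on how libraries are scaled. Per read of Cldn4 there were 1.52 reads of Cldn2 in WT26, 3.96 in WT1 and 7.75 in WT4, against 16.04 in HIP30, 11.9 in HIP2 and 13.3 in HIP3. Per read of Cldn3 there were 1.57, 4.23 and 6.19 in wild type and 11.002, 11.1 and 8.36 in HIP, in the same order of libraries. Per read of Cldn7 the ratios were 2.00, 1.48 and 4.13 in wild type and 22.9, 9.90 and 4.14 in HIP, so that WT4 and HIP3 were nearly equal. The ratio to Epcam also left the groups apart, with 0.456 in WT4 and 0.475 in HIP3.

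Against the other epithelial and junction genes the groups overlapped, each time with WT4 above HIP3. Per read of Cdh1, the adhesion molecule of epithelial cells, the ratio was 0.309 in WT4 and 0.306 in HIP3. For the tight junction protein gene Ocln it was 3.57 and 3.22, for the scaffold gene Tjp1 1.18 and 1.09, and for the duct keratin gene Krt19 0.367 and 0.332. The groups were thus apart per read of Cldn3 (6.19 in WT4, 8.36 in HIP3) and Cldn4 (7.75 in WT4, 11.9 in HIP2). They were narrowly apart per read of Epcam. Inside wild type alone the ratio to Cldn3 ran over 3.93-fold and that to Cldn4 over 5.11-fold. Per read of Cldn7 (4.13 in WT4, 4.14 in HIP3) and of Cdh1, WT4 and HIP3 were nearly equal. Per read of Ocln, Tjp1 and Krt19 the groups overlapped. Cldn2 was chosen because its groups did not overlap, so these ratios are a description and lend that choice no weight.

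**Figure D4:**
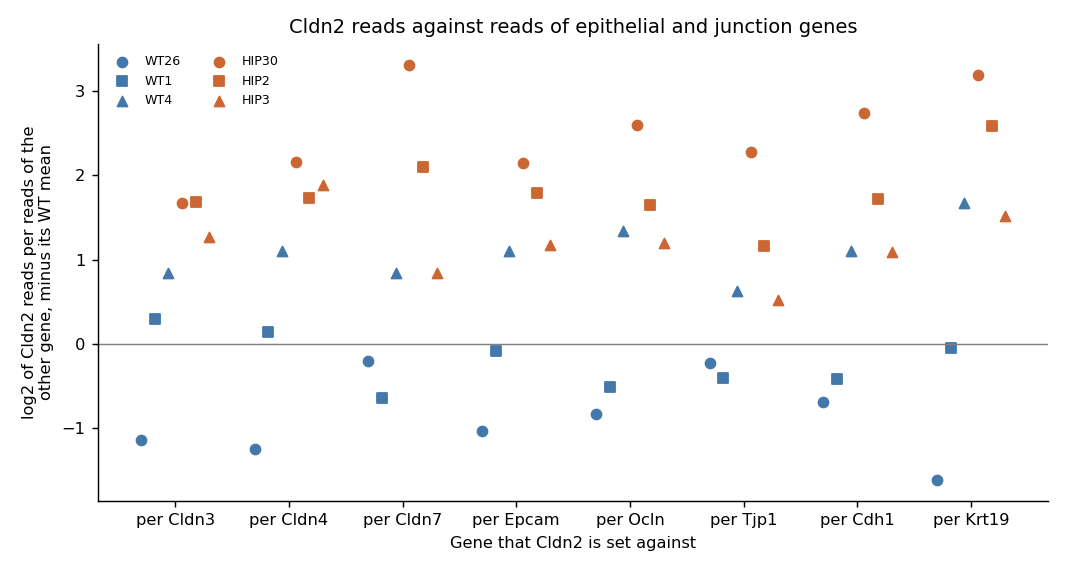
The log2 ratio of Cldn2 reads to the reads of 8 other genes in each library, minus the wild-type mean of that ratio, with blue points for wild type and orange points for HIP. The WT4 and HIP3 triangles lie side by side in most columns, and the HIP30 and HIP2 points lie above every wild-type point in all 8.

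The genes whose pattern over the 6 libraries was most like that of Cldn2 were searched among 9996 other tested genes with a mean of at least 5 CPM. By Pearson r of log2 levels genes among the first 5 were Btg1 (0.998), Lims2 (0.997), Hoga1 (0.996) and Pnrc1 (0.993), each with the same order of libraries as Cldn2. Btg1, known as an antiproliferative gene, stood at 202 (WT26), 223 (WT1) and 281 CPM (WT4) in wild type, and 414 (HIP30), 329 (HIP2) and 300.4 CPM (HIP3) in HIP. Sharing the order of libraries of Cldn2, Btg1 could not overlap between the groups, so that is no further result. Its r with Cldn2 was 0.994 after each group's mean was taken off. These values are the highest of a search over many genes with 6 points, and 136 of the 9996 genes had an r of 0.95 or more. Among the other members Cldn12 came closest, with an r of 0.82 at rank 905, and of 0.45 after each group's mean was taken off.

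Of the 12 claudins outside the 10 genes, 6 passed the filter, and none of these passed limma's test. Cldn8, a sealing claudin, stood at 69.9 to 102 CPM in wild type and 52.4 to 102 CPM in HIP (log2 difference -0.13, limma, adjusted p = 0.945). Cldn6, a claudin of embryonic epithelia, stood at 0 (WT26), 1.41 (WT1) and 8.69 CPM (WT4) in wild type, and 15.7 (HIP30), 13.7 (HIP2) and 6.62 CPM (HIP3) in HIP. The log2 difference of Cldn6 was 3.27 (standard error 1.36), larger than that of Cldn2, on 0 to 258 reads per library. HIP3 lay below WT4, so the groups of Cldn6 overlapped (limma, unadjusted p = 0.0429 and adjusted p = 0.691). Cldn11, Cldn17 and Cldn20 stayed below 2.5 CPM in every library. Cldn9, Cldn14, Cldn16, Cldn19, Cldn22 and Cldn24 did not pass the filter. Cldnd1, a distant relative, stood at 131 ± 45.4 CPM in wild type and 97.1 ± 17.2 CPM in HIP (SD, n = 3; limma, adjusted p = 0.795).

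The partners of claudins in the tight junction were counted from a list of 34 genes, of which 30 were in the tables and 29 were tested. None passed limma's test in either direction (0 higher and 0 lower, smallest adjusted p = 0.691), and limma-voom called 0. In HIP 17 were higher and 12 lower, with a median log2 difference of 0.07, against 6179 higher and 5923 lower and a median of 0.01 over all tested genes. At an unadjusted p under 0.05 there were 2 of 29, both higher, and none lower, where over all tested genes the shares were 3.29% and 3.26%. Ocln, which encodes occludin, stood at 295 ± 93.6 CPM in wild type and 226 ± 22.5 CPM in HIP (SD, n = 3). Tjp1, which encodes the scaffold ZO-1, stood at 529 ± 91.4 and 594 ± 122 CPM. Neither passed the test (limma, adjusted p = 0.796 for Ocln and 0.903 for Tjp1).

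The partner genes with the lowest unadjusted p were Mpdz, Cgnl1, Arhgef2 and Marveld3. Cgnl1, which encodes paracingulin of the junction plaque, stood at 26.9 (WT26), 61.4 (WT1) and 131 CPM (WT4) in wild type, and 231 (HIP30), 222 (HIP2) and 89.0 CPM (HIP3) in HIP. Its log2 difference was 1.46 (standard error 0.58, limma, unadjusted p = 0.0367), close to that of Cldn2, but HIP3 lay below WT4. Mpdz, a scaffold with many PDZ domains that binds claudin tails, stood at 34.7 ± 9.11 CPM in wild type and 59.2 ± 16.4 CPM in HIP (SD, n = 3), again with HIP3 below WT4. Arhgef2, a guanine nucleotide exchange factor, and Marveld3, a relative of occludin, were lower, with log2 differences of -0.56 and -0.45. None of the 4 passed over all genes (limma, adjusted p = 0.691 for the first 3 and 0.698 for Marveld3).

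For adherens junctions and desmosomes, the anchoring contacts below the tight junction, 16 genes were tested. Of these 2 were higher and 14 lower in HIP, with a median log2 difference of -0.48, and 0 passed limma's test or limma-voom. With p unadjusted and under 0.05 limma gave 2 of 16, both lower, and limma-voom 3, where 3.26% of all tested genes were lower by limma and 7.55% differed in either direction by limma-voom. Perp, a desmosome protein, stood at 1423 ± 681 CPM in wild type and 723 ± 266 CPM in HIP, and Vcl, which encodes vinculin, at 515 ± 156 and 311 ± 87.9 CPM (SD, n = 3). Pvrl3, a nectin, and Evpl, which encodes envoplakin, had log2 differences of -0.65 and -0.72. Cdh1 differed by -0.37 (limma, adjusted p = 0.805). The summed level of the 9 duct epithelium markers, led by keratins, ran from 8892 CPM in WT4 to 24175 CPM in WT26 and from 8860 to 11115 CPM in HIP, and its part in these lower values was not tested.

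**Figure D5:**
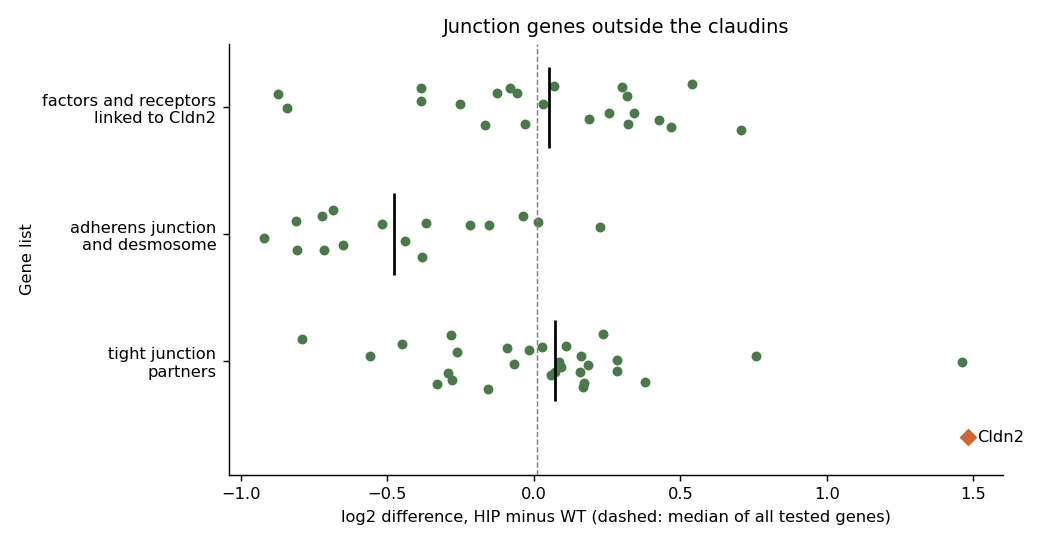
The log2 difference of HIP minus wild type for each tested gene of 3 lists (points), with the list median as a black line, the median of all tested genes as a dashed line and Cldn2 as a diamond. The adherens junction and desmosome list has its median at -0.48, and among the tight junction partners Cgnl1 at 1.46 is the point nearest to Cldn2 at 1.48.

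Transcription factors and receptors known to act on Cldn2 or on epithelial junctions were counted from a list of 24, of which 22 were tested. In HIP 12 were higher and 10 lower, with a median log2 difference of 0.05, and 0 passed limma's test or limma-voom. With p unadjusted and under 0.05 each tool gave 3 of 22 (1 higher and 2 lower by limma), where the shares over all tested genes were 6.54% by limma and 7.55% by limma-voom. Vdr, the vitamin D receptor, stood at 63.8 ± 6.13 CPM in wild type and 37.9 ± 17.1 CPM in HIP (SD, n = 3), with every HIP library below every wild-type library. Stat3, which carries cytokine signals, differed by 0.30, with every HIP library above every wild-type library. In the list 2 genes lay wholly above and 1 wholly below, where the shares over all tested genes were 5.27% and 4.27%. Klf4, a factor of epithelial differentiation, differed by -0.87, with overlapping groups. The intestinal factor Cdx2 stood at 37.0 to 80.1 CPM in wild type and 37.9 to 68.2 CPM in HIP, with a log2 difference of -0.13.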

How the data were processed

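Per the labels' protocols, glands were laser-captured, and kits meant for small amounts of RNA served for extraction and library preparation. As listed per the submitters' processing notes, STAR, HTSeq, edgeR, limma and genome build rn5 were used, without versions or order. The authors deposited log2 CPM with a prior for 15679 rows per library, not scaled by gene length. Whole reads were recovered from these log2 values for 100% of entries within 0.1 reads, and 4 rows with repeated symbols were left out. Whether counting used strand is not given, so overlapping genes could not be separated. Claudin paralogs can share reads.

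Libraries were scaled by trimmed means (30% of log ratios and 5% of levels trimmed). The filter kept 12102 genes that reached 0.61 CPM (10 reads of the median library) in at least 3 libraries and had 15 or more reads over all. A pseudocount of 0.122 CPM (2 reads of an average library) was added before log2 was taken, and HIP was set against wild type with limma 3.58.1 (R 4.3.3) and its intensity trend, and p-values were adjusted by Benjamini-Hochberg over all tested genes at 0.05. With the pseudocount, changes of low genes come out too small. Because separate animals are not stated, p-values cover only how far these 6 libraries spread, and that spread may be technical. Named genes were the members, the other claudins, the 4 lowest unadjusted p of each list with Ocln, Tjp1, Cdh1 and Epcam, and the 5 genes most like Cldn2. Some genes and a motif that these rules name are not reported here. Levels, ratios and marker sums were chosen for description, and Krt19, Cdx2, Ptprc, Mpeg1 and Tff1 were named after their values were seen. The members and lists were chosen with earlier results of these data known. Steps were tested on simulated reads, and figures were drawn with matplotlib 3.10.9.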

Additional observations from a re-analysis of the deposited data

How the results depend on the processing

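The fit was repeated in 15 other settings, 14 of them planned and 1, without WT4 and HIP3, added after the data were seen. In all 15 the number of genes passing limma or limma-voom over all genes stayed at 0, as did the number of tight junction partners, while genes at an unadjusted p under 0.05 ranged from 149 to 2660. The Cldn2 difference of 1.48 stayed positive in all 15, at 0.91 among the libraries numbered 1 to 4, 1.18 to 1.85 with 1 library left out in turn (1.18 without HIP30) and 2.12 without WT4 and HIP3. Most settings cannot make separated groups overlap, so that Cldn2 and Cldn12 stayed separated in them is no sign of stability. For Cldn5 the groups overlapped with library totals and without HIP2. Of the 9 other members, 3 had a positive difference in the main setting, 5 among the libraries numbered 1 to 4, and 2 to 5 with 1 library left out. The sign turned in 3 settings for Cldn1, 6 for Cldn3 and 2 for Cldn18, and in none for the others. The number of tested genes with every HIP library above every wild-type library went from 638 to 1497 among the libraries numbered 1 to 4, 908 to 2129 with 1 library left out and 3360 without WT4 and HIP3, where fewer libraries have to be separated. No paired analysis was possible because the groups share no replicate number. Below about 10 reads per library, as for Cldn10, the depth set what could be compared.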
